A study of Homo sapiens with 12 samples.

Results

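The 8 genes described here encode the secreted neurotrophin BDNF, the neurotrophin receptors NGFR, NTRK2 and NTRK3, the RNA-binding proteins ELAVL2, ELAVL3 and ELAVL4, and the transcriptional repressor REST. They are 8 of the 58278 genes listed for each library. They were chosen by measured values, with earlier results of these data known: the expected counts of NGFR and ELAVL3, which set in with short-chain fatty acids (SCFAs), selected the set. Their levels with SCFA against those without are therefore given as a description and carry no test.

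RNA was sequenced from HK2, an immortalised line of human proximal tubular epithelial cells (TECs), in 12 libraries that fall into 6 groups of 2. Ctrl cells were untreated and TN cells received TNF-α at 5 ng/ml for 3 h. PRTN and BUTN cells received 15 mM propionate or 3 mM butyrate for 24 h and then the same TNF-α, and TNPR and TNBU cells received the same SCFA for 24 h after the TNF-α. All 4 SCFA groups thus also carry TNF-α, and the comparisons below hold neither an SCFA without TNF-α nor cells kept 24 h after TNF-α without SCFA. All libraries come from 1 cell line, and p-values measure the spread between these libraries only. The labels also share a treatment text that mentions thapsigargin and JQ1. The groups here follow the treatment given for each library by itself. The 2 doses differ, so propionate against butyrate compares the treatments as they were given.

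Neurotrophins are growth factors that neurons need to survive and to form synapses. BDNF binds the receptor tyrosine kinase TrkB, the product of NTRK2. The related kinase TrkC, the product of NTRK3, binds neurotrophin 3, and p75NTR, the product of NGFR, binds all mature neurotrophins and their precursors. ELAVL2, ELAVL3 and ELAVL4 (HuB, HuC and HuD) bind AU-rich stretches of mRNA and are best known from neurons, whereas their relative ELAVL1 (HuR) is made in nearly all cells. REST binds the RE1 element and recruits histone deacetylases and other corepressors, and it keeps many neuronal genes silent in other tissues. Propionate and butyrate inhibit class I histone deacetylases.

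Library totals ran from 27269986 to 33851130 expected counts. Replicates differed by more than sampling noise in every group, with a chi-square per gene of 3.17 to 6.61 in Ctrl, TN, PRTN and BUTN, 15.1 in TNPR and 18.1 in TNBU, where 1 would be counting error alone. Levels are in counts per 1000000 of the counts in kept genes (CPM), scaled with TMM factors, with the SD of 2 libraries. For a gene at 0, the upper limit is set at 3 counts, or 0.0867 to 0.112 CPM depending on the library. Of the 8 genes, 7 were among the 24342 genes kept for testing, and ELAVL4, at 0 in all 12 libraries, was not. Of the 4 genes that were near 0 without SCFA, NGFR, ELAVL3, NTRK2 and NTRK3, each passed the filter only through the SCFA libraries. The tubular label was checked against 23 renal epithelial markers. The nephron transcription factor PAX8 stood at 362 to 414 CPM without SCFA and at 128 to 160 CPM with it, and keratin 8 (KRT8) at 701 to 785 CPM without and 1070 to 1437 CPM with it. The proximal tubule regulator HNF4A and the endocytic receptor megalin (LRP2) were at 0 in all 4 libraries without SCFA and at 0.213 to 0.636 and 0.347 to 0.991 CPM with it. The anion transporter SLC22A6 was at 0 in all 12.

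Promoter sequence was looked up for the 8 genes in RefSeq (GRCh38.p14), as 250 bases before and 50 after each annotated start. The look-up matched 6 of 8, with 25 starts in all, and had no entry for NGFR and ELAVL3. The most upstream start of 3 genes is shown because they differ in level with SCFA, BDNF being higher, REST lower and ELAVL2 close to its TN level. BDNF lies at chr11:27721981-27722280 (minus strand), ELAVL2 at chr9:23826191-23826490 (minus strand) and REST at chr4:56907650-56907949 (plus strand). Capitals mark the GC box GGGCGG on either strand (CCGCCC on the other), the site of Sp1-family factors.
BDNF: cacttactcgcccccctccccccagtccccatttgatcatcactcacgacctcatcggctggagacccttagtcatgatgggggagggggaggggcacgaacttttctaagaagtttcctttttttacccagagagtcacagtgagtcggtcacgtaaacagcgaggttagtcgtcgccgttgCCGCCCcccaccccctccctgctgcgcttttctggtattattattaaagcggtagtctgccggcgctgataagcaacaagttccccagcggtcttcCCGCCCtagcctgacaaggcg
ELAVL2: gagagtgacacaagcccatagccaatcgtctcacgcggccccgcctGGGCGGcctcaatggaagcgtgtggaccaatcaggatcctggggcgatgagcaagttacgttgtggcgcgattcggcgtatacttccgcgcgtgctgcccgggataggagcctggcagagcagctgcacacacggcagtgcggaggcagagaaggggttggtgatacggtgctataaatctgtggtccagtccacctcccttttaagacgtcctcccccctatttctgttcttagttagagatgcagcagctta
REST: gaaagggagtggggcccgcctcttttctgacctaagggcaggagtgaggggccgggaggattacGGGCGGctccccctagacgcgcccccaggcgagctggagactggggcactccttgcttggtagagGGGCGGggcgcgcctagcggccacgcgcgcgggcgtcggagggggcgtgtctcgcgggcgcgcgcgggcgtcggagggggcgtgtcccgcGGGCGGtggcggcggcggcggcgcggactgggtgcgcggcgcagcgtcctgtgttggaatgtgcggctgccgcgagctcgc
The REST window was the richest of the 3 in G and C, at 76.0% with 44 CpG dinucleotides, against 56.7% and 18 for BDNF and 58.0% and 20 for ELAVL2. The median of 35116 RefSeq promoter windows was 58.7% with 14 CpG. The GC box was found 3 times in the REST window, 2 times in that of BDNF and once in that of ELAVL2, and 45.0% of all windows hold at least 1. The left part of the RE1 element (TTCAGCACC) and its right part (GGACAGCGC), searched on both strands, were in none of the 25 windows, and 0.376% and 0.581% of all windows hold them. At such shares nearly every window lacks them, so their absence says little. Inexact forms and sites outside the windows were not searched. The ELAVL2 window also held a TATA box (TATAAA, in 11.5% of all windows) and 2 CCAAT boxes (CCAAT, in 34.6%), which were not in the other 2 windows shown. A match describes letters only, and counts per gene do not tell which start was used.

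BDNF, the ligand, was expressed in every library and stood higher in all 8 SCFA libraries than in all 4 without SCFA. The gene lies at chr11:27654893-27722058 on the minus strand (ENSG00000176697.18). Its level was 10.9 and 11.4 CPM in Ctrl and 10.1 and 10.5 CPM in TN. PRTN libraries had 22.3 and 22.9 CPM and BUTN libraries 18.6 and 21.4 CPM, TNPR libraries 20.5 and 25.5 CPM and TNBU libraries 17.3 and 21.4 CPM. The lowest SCFA library, in TNBU, was still above the highest Ctrl library, and the 4 SCFA groups lay between 19.4 ± 2.92 CPM (SD, n = 2) in TNBU and 23.0 ± 3.50 CPM (SD, n = 2) in TNPR. Against 10.3 ± 0.275 CPM (SD, n = 2) in TN the fitted log2 differences were 1.13 for PRTN and 0.95 for BUTN, and 1.15 for TNPR and 0.90 for TNBU, each with a standard error of 0.14.

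Part of the BDNF reads is shared with its antisense neighbour. The lncRNA BDNF-AS overlaps it on the opposite strand and held 1.32 to 7.01 counts, 0.204% to 2.02% of the sum of both genes. BDNF had a whole count, within 0.011 counts, in 1 of 12 libraries, while the sum with BDNF-AS was whole in 12 of 12. The counting program thus split reads between the 2 genes. The share given to BDNF-AS does not tell how many of the reads given to BDNF could belong to either gene.

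NGFR, the p75 neurotrophin receptor, was silent without SCFA and present in every SCFA library. It lies at chr17:49495293-49515008 on the plus strand (ENSG00000064300.8). The 2 Ctrl libraries held 1 and 0 counts and both TN libraries 0. PRTN had 294 and 295 counts and BUTN 338 and 320.0, while TNPR had 267 and 308 and TNBU 301 and 339. No SCFA library came near the libraries without SCFA. In bulk RNA, a few cells with much of a transcript and many cells with little of it cannot be told apart, nor fewer cells of a type from less RNA per cell. The SCFA groups overlapped with their neighbours in the order of their levels.

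The NGFR level was 8.74 ± 0.326 CPM (SD, n = 2) in PRTN, 8.88 ± 1.37 CPM (SD, n = 2) in TNPR, 9.91 ± 0.940 CPM (SD, n = 2) in BUTN and 10.9 ± 0.4996 CPM (SD, n = 2) in TNBU. With TN set at 3 counts per library, NGFR was at least 79.7-fold higher in PRTN, 80.9-fold in TNPR, 90.3-fold in BUTN and 99.3-fold in TNBU. Against the single count in Ctrl, the ratio of summed counts, each divided by its library totals, was 534 in PRTN, with a 95% exact interval of 95.4 to 21121 that covers counting error only. The opposite-strand neighbour NGFR-AS1 held at most 3.05 counts in any library. That does not limit the antisense reads that may have been given to NGFR, whose count was not whole in 3 libraries.

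The Trk receptor genes were barely detected. NTRK2, the TrkB gene at chr9:84668375-85095751 (plus strand, ENSG00000148053.15), had 0 counts in Ctrl and TN. PRTN had 5 and 5 counts and BUTN 6 and 7, while TNPR had 8 and 9 and TNBU 6 and 9. Every SCFA library held some reads and no other library did, at 0.145 to 0.299 CPM. With TN at the floor, NTRK2 was at least 1.35-fold higher in PRTN, 1.78-fold in BUTN, 2.32-fold in TNBU and 2.39-fold in TNPR.

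NTRK3, the TrkC gene at chr15:87859751-88256791 (minus strand, ENSG00000140538.16), had 0 counts in both Ctrl libraries and 0 and 1 in TN. PRTN had 1 and 2 counts and BUTN 1 and 4, while TNPR had 1 and 7 and TNBU 5 and 4. Both TNBU libraries held more than 3 counts, 1 library each of BUTN and TNPR did, and no PRTN library did. The ratio to TN of summed counts over library totals was 9.61 in TNBU, with a 95% exact interval of 1.33 to 421, and 2.71 in PRTN, with an interval of 0.218 to 142. Both ratios rest on 1 count in TN. The intervals cover counting error only, not the spread between replicates, and are a description rather than a test. At this depth an NTRK3 difference between the SCFA groups was not detectable.

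**Figure D1:**
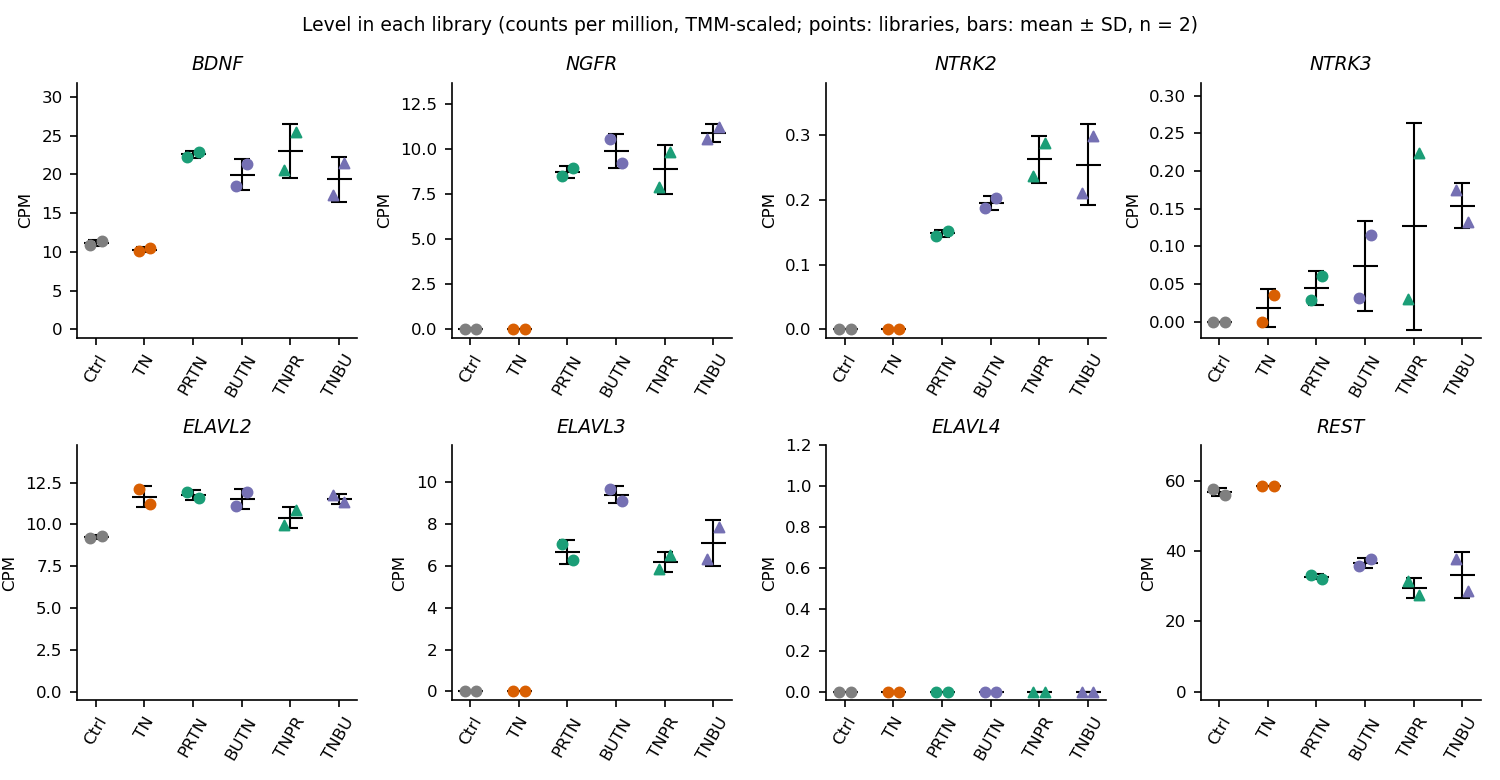
Level of each of the 8 genes in each of the 12 libraries, in TMM-scaled CPM on linear axes that differ between panels. Points are libraries (triangles for SCFA after TNF-α), and black bars are the mean ± SD of 2 libraries. NGFR and ELAVL3 lie at or near 0 in Ctrl and TN and at 5.83 to 11.3 CPM in the SCFA libraries, REST falls from 55.9 to 58.4 CPM to 27.4 to 37.8 CPM, and ELAVL4 is at 0 throughout.

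The 3 neuronal ELAV genes each had a pattern of their own. ELAVL2 (chr9:23690104-23826337, minus strand, ENSG00000107105.14) was expressed in every library. It was at 9.17 and 9.32 CPM in Ctrl and at 12.1 and 11.2 CPM in TN. PRTN libraries had 11.96 and 11.6 CPM and BUTN libraries 11.1 and 11.9 CPM, TNPR libraries 9.98 and 10.8 CPM and TNBU libraries 11.7 and 11.3 CPM. The Ctrl libraries were the lowest of the 12, TNPR came next, and the other 4 groups overlapped with their neighbours. Against TN the log2 difference was 0.01 for PRTN and -0.02 for BUTN, and -0.17 for TNPR and -0.02 for TNBU, with standard errors of 0.09. With library size alone it was 0.17, 0.14, 0.01 and 0.18, so the sign of these small values depends on the scaling.

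ELAVL3 (chr19:11451326-11481046, minus strand, ENSG00000196361.9) had 0 and 1 counts in Ctrl and 0 in TN. PRTN had 244 and 206 counts and BUTN 310 and 316, while TNPR had 197 and 204 and TNBU 181 and 237. As with NGFR, no SCFA library came near those without SCFA, but here BUTN stood above the other 3 SCFA groups with no overlap. Its level was 9.41 ± 0.401 CPM (SD, n = 2) in BUTN, 7.10 ± 1.08 CPM (SD, n = 2) in TNBU, 6.67 ± 0.566 CPM (SD, n = 2) in PRTN and 6.18 ± 0.488 CPM (SD, n = 2) in TNPR. With TN at the floor, ELAVL3 was at least 85.8-fold higher in BUTN, 64.8-fold in TNBU, 60.8-fold in PRTN and 56.3-fold in TNPR. ELAVL4 (chr1:50024029-50203772, plus strand, ENSG00000162374.16) had 0 counts in all 12 libraries. The 3 counts that a 0 allows are 0.112 CPM at most, far under the SCFA levels of ELAVL3.

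REST, the repressor, was the most abundant of the 8 genes and was lower in all 8 SCFA libraries. It lies at chr4:56907876-56966808 on the plus strand (ENSG00000084093.16). Its level was 57.6 and 55.9 CPM in Ctrl and 58.4 and 58.4 CPM in TN. PRTN libraries had 33.3 and 32.2 CPM and BUTN libraries 35.7 and 37.6 CPM, TNPR libraries 31.4 and 27.4 CPM and TNBU libraries 37.8 and 28.6 CPM. The highest SCFA library stayed well below the lowest library without SCFA, and the 2 TNBU libraries were further apart than any 2 of the SCFA group means. Against TN the log2 difference was -0.84 for PRTN and -0.67 for BUTN, and -0.99 for TNPR and -0.83 for TNBU, with standard errors of 0.10 to 0.11. The SCFA levels were thus 0.503 to 0.627 of the TN level.

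The REST value kept its sign under each scaling. With library size alone the differences were -0.68, -0.52, -0.82 and -0.63, while the median of all 24342 genes moved from between 0.08 and 0.12 to between 0.23 and 0.29. NOA1, a mitochondrial GTPase gene that overlaps REST on the opposite strand, held 540 to 1084 counts. The libraries were made with a stranded kit, the strand setting of the counting is not given in the sources used here, and REST counts were whole numbers in all 12 libraries.

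Levels of different genes were compared per kilobase of exon (GENCODE v44). In the SCFA groups NGFR was at 2.11 to 2.63 CPM per kb, ELAVL3 at 1.30 to 1.98, ELAVL2 at 2.03 to 2.29, BDNF at 2.50 to 2.97 and REST at 3.13 to 3.90. On this scale NGFR in SCFA-treated cells lay near ELAVL2, while ELAVL3 lay below ELAVL2 and BDNF in each SCFA group. NTRK2 and NTRK3 stayed at 0.002 to 0.008 CPM per kb.

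The next question was whether TNF-α alone, the choice of SCFA or the time of its addition changed these genes. The selection did not use these comparisons. They were tested with limma-voom over all 24342 kept genes, and a gene was called when the Benjamini-Hochberg adjusted p was under 0.05 and the fold change over 1.5. No member was called in any of them, by limma-voom, edgeR or DESeq2. The background was low too, since 1.30% of all genes were called in TN vs Ctrl, 0.168% in PRTN vs BUTN, 0.00822% in TNPR vs TNBU, 0.160% in TNPR vs PRTN and 0.267% in TNBU vs BUTN.

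In TN vs Ctrl, 3 members were above the floor and could be tested. ELAVL2 had the largest difference, a log2 fold change of 0.33 (standard error 0.10, 95% interval 0.12 to 0.55), which is 1.26-fold with no overlap between the groups. Its limma-voom p was 0.0054 before and 0.0944 after adjustment, so it was not called. BDNF was at -0.11 (standard error 0.16, adjusted p = 0.785) and REST at 0.04 (standard error 0.10, adjusted p = 0.906). The groups did not overlap for BDNF and REST either, so non-overlap does not set ELAVL2 apart. For REST the interval, -0.18 to 0.26, leaves out a 1.5-fold change in either direction after TNF-α alone.

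Between the SCFAs given before TNF-α, ELAVL3 differed most. Its level in PRTN was 0.709 of that in BUTN, a log2 difference of -0.50 (standard error 0.13, 95% interval -0.77 to -0.22), with no overlap between the libraries. The limma-voom p was 0.0018 before and 0.0976 after adjustment. With the 4 libraries of these groups alone the adjusted p was 0.0236, the lowest of its alternatives, which ran up to 0.447, and ELAVL3 was called in none of them. NGFR was also lower in PRTN than in BUTN, at -0.18 (standard error 0.12, adjusted p = 0.559), and BDNF higher, at 0.18 (standard error 0.12, adjusted p = 0.531). REST was at -0.16 (standard error 0.11, adjusted p = 0.537) and ELAVL2 at 0.03 (standard error 0.09, adjusted p = 0.918). The libraries of NGFR, BDNF, NTRK2 and REST did not overlap either, though none of these genes was called. The share of all genes that separate in this way is not given for any comparison, so non-overlap only describes the libraries.

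Between the SCFAs given after TNF-α, ELAVL3 was at -0.20 (standard error 0.14, adjusted p = 0.718), and its libraries overlapped. NGFR had the lowest p here, with TNPR at 0.807 of TNBU, a log2 difference of -0.31 (standard error 0.12, 95% interval -0.58 to -0.04). Its limma-voom p was 0.0265 before and 0.518 after adjustment. BDNF was at 0.24 (standard error 0.12, 95% interval -0.02 to 0.50) and REST at -0.16 (standard error 0.11, 95% interval -0.40 to 0.08), neither of them called. For ELAVL3, NGFR, BDNF and REST the intervals leave out a difference of 2-fold between the SCFAs at either time, which is not the same as showing equal levels. For NTRK2 and NTRK3 the intervals were wide, from -2.43 to 0.94 for NTRK3 in TNPR vs TNBU.

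The time of SCFA addition was compared within each SCFA. TNPR and TNBU cells had 24 h of SCFA after the TNF-α, so the order of addition cannot be told apart from the time since TNF-α. ELAVL3 was lower in TNBU than in BUTN, at 0.754 of its level, a log2 difference of -0.41 (standard error 0.13, 95% interval -0.69 to -0.13), with no overlap. Its limma-voom p was 0.0075 before and 0.173 after adjustment. In TNPR vs PRTN it was at -0.11 (standard error 0.14). NGFR was at 0.01 (standard error 0.12) in TNPR vs PRTN and at 0.14 (standard error 0.12) in TNBU vs BUTN. BDNF was at 0.01 and -0.05 (standard errors 0.12) and REST at -0.16 in both (standard errors 0.11). In TNBU vs BUTN the REST value rested on single TNBU libraries, at -0.37 without replicate 1 and 0.04 without replicate 2.

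The Trk genes again had too few counts for a firm value. NTRK2 was at 0.76 in TNPR vs PRTN (standard error 0.43, 95% interval -0.17 to 1.69), although its libraries did not overlap. Whether the effect of timing differed between propionate and butyrate was tested as an interaction. No gene of the 24342 was called in it by limma-voom (percent called 0), with 935 genes at an unadjusted p under 0.05, 1 called by edgeR and 4 by DESeq2. The interaction was 0.30 (standard error 0.19, 95% interval -0.11 to 0.70) for ELAVL3 and -0.13 (standard error 0.17, 95% interval -0.51 to 0.24) for NGFR.

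**Figure D2:**
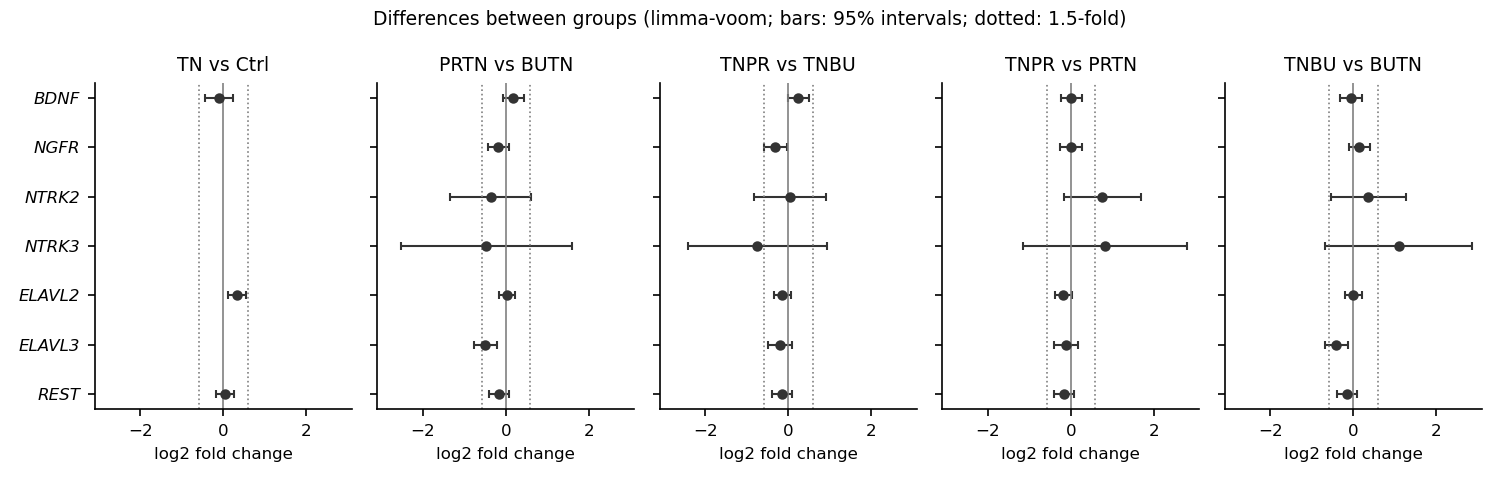
Fitted log2 fold changes (x axis) of the 7 tested genes (y axis) in the 5 comparisons that the selection did not use. Points are limma-voom estimates, bars are 95% intervals and dotted lines mark 1.5-fold. The intervals of NTRK2 and NTRK3 reach past 1.5-fold on at least 1 side in each SCFA comparison, and genes at or under 3 counts in both groups are left out of TN vs Ctrl.

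Other genes of the same systems were taken from lists and tested against TN. These genes took no part in the selection of the 8 members, but the lists were drawn up with earlier results known and give no independent support. Among all kept genes 23.9% were called up and 16.7% down in PRTN. BUTN had 23.1% up and 14.8% down, TNPR 24.9% and 16.9%, and TNBU 25.0% and 16.5%. Called in the same direction in each of the 4 were 18.4% up and 11.9% down. With library size alone the share of called genes that were up moved from between 58.9% and 60.9% to between 68.5% and 72.0%. The 4 comparisons share the TN libraries. Some list genes, like NGFR and ELAVL3, were at or near 0 without SCFA and passed the filter only through the SCFA libraries, so they had to differ. Where a stricter filter that drops genes at 0 in any library moves a count by over 1.5 times, that count is given beside it.

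Ligands, receptors and co-receptors of the neurotrophins leaned upward. Of 11 listed genes 8 were kept, and 5 were called up and none down in each of the 4 comparisons, beside 23.1% to 25.0% up and 14.8% to 16.9% down over all kept genes. The median log2 difference was 0.94 to 1.04 against 0.08 to 0.12 over all genes. SORT1, which encodes sortilin, the partner of p75NTR for precursor neurotrophins, rose from 131 to 148 CPM without SCFA to 270 to 334 CPM with it. SORL1, a related sorting receptor, rose from 0.261 to 0.466 CPM to 7.99 to 13.5 CPM. LINGO1, a co-receptor of p75NTR in the Nogo receptor complex, was called up in all 4 as well, from 0 in all libraries without SCFA to 0.384 to 1.00 CPM. It is named beside the rule for named genes, after its values were seen. SORCS2, a sorting receptor of the sortilin family, and RTN4R, the Nogo receptor, were called up in 1 and 3 of the 4.

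Enzymes that process neurotrophins moved in both directions. Of 8 listed genes 6 were kept, with 3 called up and 1 down in each comparison. The shares over all kept genes were 23.1% to 25.0% up and 14.8% to 16.9% down, so the 1 downward call says little about the list. PLAT, the tissue plasminogen activator, which activates the protease that cleaves proBDNF outside the cell, rose from 8.24 to 13.9 CPM to 105 to 128 CPM. It was also the only kept gene of this list called in TN vs Ctrl, at a log2 difference of 0.62. Carboxypeptidase E (CPE), which sorts proBDNF into secretory granules, rose from 33.3 to 35.5 CPM to 75.4 to 98.9 CPM. FURIN, the convertase that cleaves proneurotrophins in the Golgi, fell from 87.6 to 103 CPM to 41.2 to 53.0 CPM. PCSK7 was called in none, at 89.0 to 96.0 CPM without and 99.1 to 127 CPM with SCFA.

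Signalling adaptors were called up about as often as all kept genes. All 18 were kept, and 4 to 5 were called up and 1 to 3 down. Over all kept genes 23.1% to 25.0% were called up and 14.8% to 16.9% down, so these counts say little about the list. The median log2 difference of the adaptors was -0.08 to -0.03, against 0.08 to 0.12 over all genes. SHC4 rose from 0.108 to 0.323 CPM to 0.954 to 1.73 CPM, GRB2, which links receptors to Ras, from 145 to 158 CPM to 238 to 269 CPM, and FRS3 from 5.02 to 6.18 CPM to 7.46 to 9.67 CPM. SOS1, the Ras exchange factor that GRB2 binds, fell from 54.4 to 65.5 CPM to 24.7 to 31.9 CPM. MAGED1, which binds p75NTR, was called in none, at 272 to 298 CPM without and 257 to 279 CPM with SCFA.

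Beside ELAVL3, RNA-binding proteins of neurons split. Of 22 listed genes 18 were kept, with 6 to 8 called up and 3 to 5 down, beside 23.1% to 25.0% up and 14.8% to 16.9% down over all kept genes. Their median lay at -0.01 to 0.17, or -0.06 to 0.14 with the 4 genes at 0 in TN set at their bound. Of the kept genes, 6 were called up and 3 down in all 4, but with genes at 0 in any library removed 1 was called up and 3 down. The splicing regulator NOVA2 was at 0 in all libraries without SCFA and at 3.09 to 4.29 CPM with it. Musashi 1 (MSI1) went from 0 to 0.0343 CPM to 1.36 to 2.51 CPM and CELF5 from 0 to 0.172 CPM to 1.36 to 2.09 CPM. PTBP2, the splicing repressor of developing neurons, fell from 32.6 to 37.4 CPM to 12.9 to 15.9 CPM. ELAVL1, the widespread relative, was called in none, at 100 to 106 CPM without and 110 to 117 CPM with SCFA, and the splicing factor RBFOX2 was also called in none. PTBP1 was called down in 2 of the 4.

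Genes that REST is known to repress were mostly higher. Of 24 listed genes 18 were kept, with 11 to 13 called up and 2 down, and 11 were called up in all 4. Over all kept genes 18.4% were called up in all 4. The median log2 difference of the kept list genes was 1.73 to 2.25, against 0.08 to 0.12 over all genes. Their summed level did not rise, at 1122 to 1255 CPM without and 1062 to 1141 CPM with SCFA. In other lists 8 of 11 kept fibroblast and endothelial markers, but 3 of 18 signalling adaptors, were called up in all 4. Whether the lower REST level played a part was not tested. SYP, the synaptic vesicle protein synaptophysin, rose from 0.609 to 0.819 CPM to 16.8 to 27.8 CPM. SYN1 (synapsin 1) rose from 0.574 to 1.06 CPM to 10.1 to 12.9 CPM, and UNC13A, which primes synaptic vesicles, from 3.28 to 4.16 CPM to 42.5 to 59.0 CPM. MAPK8IP2, a JNK scaffold, rose from 1.90 to 2.40 CPM to 20.2 to 22.7 CPM. The 2 that fell in all 4 were the adhesion molecule L1CAM and the cadherin CELSR3, the former from 683 to 749 CPM to 378 to 476 CPM, and both were singled out after their values were seen. TUBB3, the neuronal tubulin, was called in none, at 356 to 417 CPM without and 457 to 523 CPM with SCFA. In TN vs Ctrl no gene of this list was called by limma-voom.

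Corepressors and regulators of REST moved less. All 22 were kept, 1 to 2 were called up and 3 to 5 down, beside 23.1% to 25.0% up and 14.8% to 16.9% down over all kept genes. The downward counts thus say little about the list. The median was -0.28 to -0.22, against 0.08 to 0.12 over all genes. CTDSP1, a phosphatase that acts on REST, fell from 65.5 to 76.1 CPM to 38.7 to 45.9 CPM. In all 4 comparisons 1 gene was called up and 2 down, and these calls depend on the processing. With library size alone 3 were called up and none down. The upward call was lost with no filter beyond 1 count, with edgeR's filterByExpr, and without any 1 library of PRTN, BUTN or TNPR, TN replicate 1 or TNBU replicate 2. HMG20B, a subunit of the CoREST complex and the gene of that call, rose from 49.6 to 58.8 CPM to 73.2 to 86.2 CPM. The deacetylases HDAC1 and HDAC2 and the demethylase KDM1A were called in none, HDAC1 at 295 to 320 CPM without and 408 to 444 CPM with SCFA.

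**Figure D3:**
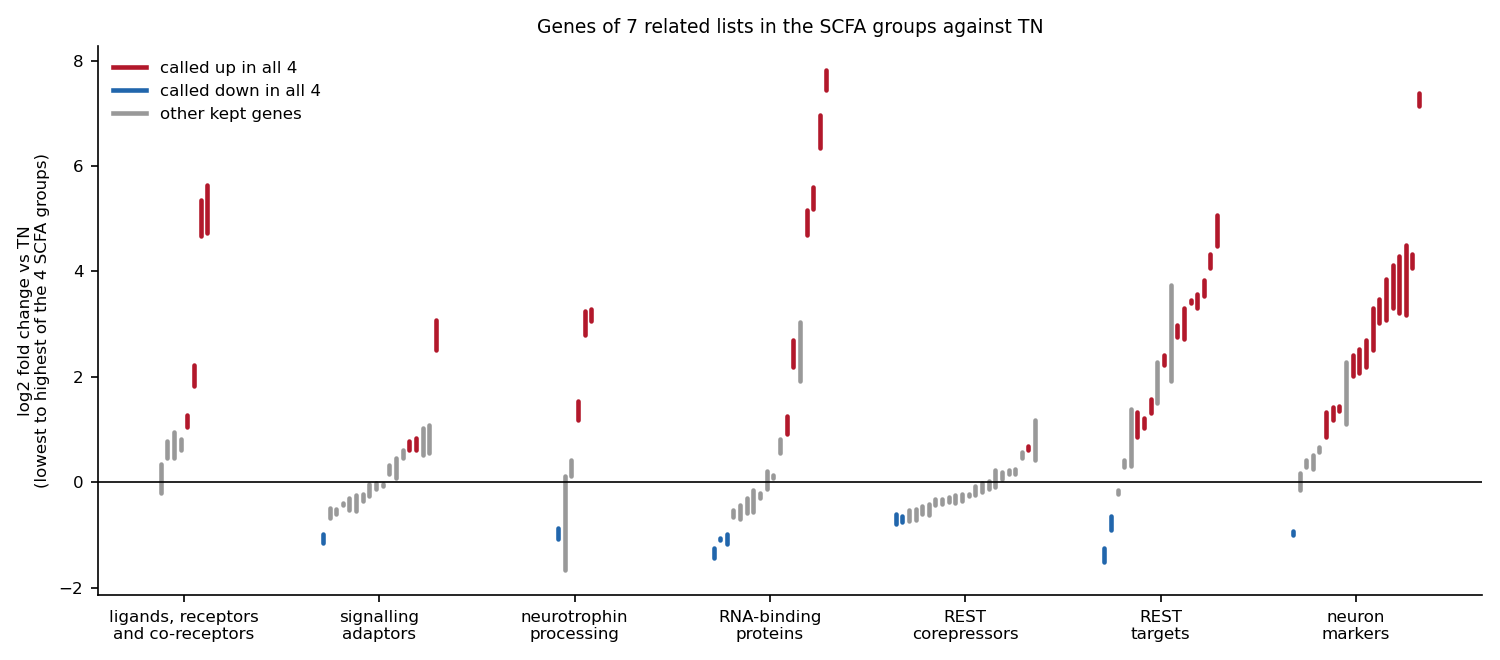
Log2 fold change against TN (y axis) of every kept gene in 7 lists related to the 8 members, which are left out. Each line runs from the lowest to the highest of the 4 SCFA groups and is red where the gene was called up in all 4, blue where called down in all 4 and grey otherwise. REST targets and neuron markers lie mostly above 0 (11 of 18 and 14 of 20 called up in all 4), and corepressors lie close to 0 (1 up and 2 down of 22).

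Markers of neurons moved with NGFR and ELAVL3, and 4 genes, SYN1, SNAP25, TUBB3 and STMN2, stand in this list and in that of REST targets. Of 25 listed markers 20 were kept, 14 were called up in all 4 comparisons and 1, the neurofilament NEFH, down. Over all kept genes 18.4% were called up and 11.9% down in all 4. With genes at 0 in any library removed, 9 of the markers were called up in all 4. The median log2 difference was 2.11 to 2.40, or 1.16 to 1.65 with the 4 genes at 0 in TN set at their bound. The vesicular glutamate transporter SLC17A7 rose from 0.0687 to 0.186 CPM to 21.7 to 28.3 CPM, and the microtubule protein MAP2 from 6.96 to 10.6 CPM to 59.1 to 84.0 CPM. The summed level of the list was 578 to 644 CPM without and 806 to 869 CPM with SCFA. The vesicular glutamate transporter SLC17A6 was at 0 in all 12 libraries, and STMN2, a tubulin-binding protein of neurons, held at most 2 counts.

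Other cell types that express NGFR were looked at in the same way, beside 18.4% called up and 11.9% down in all 4 over all kept genes. Of 15 neural crest and Schwann cell markers 11 were kept, with 5 called up and 2 down in all 4 (3 up with DESeq2 and 2 up with genes at 0 in any library removed), and their summed level was 107 to 119 CPM without and 77.6 to 111 CPM with SCFA. SOX10, which defines this lineage, was at 0 in all 12 libraries. Of 12 fibroblast and endothelial markers 11 were kept, with 8 up and 1 down in all 4 (5 up with genes at 0 removed, and none down with DESeq2), and the sum went from 53.6 to 60.8 CPM to 208 to 260 CPM. Of 10 leukocyte markers 6 were kept, with 2 up and none down, and the sum was 31.2 to 36.5 CPM without and 31.0 to 57.8 CPM with SCFA. MS4A1 was at 0 and PTPRC (CD45) at no more than 5 counts. Of the 23 renal epithelial markers 21 were kept, with 11 up and 7 down (6 up with genes at 0 removed), and the sum went from 2935 to 3448 CPM to 2266 to 2893 CPM. The part of other cell types in the NGFR and ELAVL3 values was not tested.

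The genes whose pattern was most like that of each member were found among 13450 kept protein-coding genes with at least 1 CPM in some group, by Pearson's r of log2(CPM + 0.5) over the 12 libraries. For NGFR these were CPA4, BCAS1 and KRT81 (r = 0.999 each), and for ELAVL3 they included AZGP1 and PADI3 (r = 0.998 each). Such values are common here, since 16.7% of the candidates reached 0.95 with NGFR and 15.2% with ELAVL3, and the points share the split between SCFA and no SCFA. BDNF was followed most closely by FBXO48 (r = 0.990), and REST by WDR82 (r = 0.996), a gene at 146 to 153 CPM without and 79.0 to 106 CPM with SCFA. ELAVL2, without that split, had ARNTL2 (r = 0.952), SESTD1 (r = 0.931) and CCND1 (r = 0.929), and 0.00743% of the candidates reached 0.95. For NTRK2 the nearest was SLC4A9 (r = 0.993) and for NTRK3 EFCAB13 (r = 0.9497), and the members themselves held at most 9 and 7 counts in any library. The choice depends on the measure, since with Spearman's rho 1 of the 3 nearest genes was kept for ELAVL2 and ELAVL3 and 0 for the other 5 members.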

How the data were processed

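Messenger RNA of HK2 cells was sequenced in 12 libraries from a stranded kit. The authors aligned reads to GRCh38 with STAR 2.6.1a after quality control with FastQC 0.11.5 (processing notes of the submitters) and deposited expected counts per gene from RSEM, whose version and strand setting are not given in the sources used here. These estimated counts need not be whole, and 18.0% to 20.1% of the listed values per library were not. Positions and exon lengths were taken from GENCODE v44 on the same build.

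The 8 members and all gene lists were chosen with earlier results of these data known. Genes were kept where the geometric mean of count + 1 over the 12 libraries, minus 1, was at least 1, which left 24342. Unrounded expected counts were fitted with limma-voom (limma 3.58.1, R 4.3.3, TMM factors 0.913 to 1.06 from edgeR 4.0.16), with 1 mean for each of the 6 groups and p-values adjusted by Benjamini-Hochberg over all kept genes. Alternatives were edgeR's quasi-likelihood test, DESeq2 1.42.0 on rounded counts, other scalings and filters, fewer groups, a replicate block and each library left out. The fit was tested on simulated data. Ratio intervals are exact and cover counting error only.

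Genes named from a list were the 4 with the largest smallest change among those called in all 4 SCFA comparisons and the 3 with the highest level among the rest, unless stated otherwise. A few genes that this rule names, and a few defining markers, are not reported here, though they stay in the counts of their lists. Libraries of 2 groups that share a number were not paired by the labels, and deviations from the group means correlated at -0.079 to 0.24 over 15 pairs of groups, with 1 over 0.1.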

Additional observations from a re-analysis of the deposited data

How the results depend on the processing

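No member was called in a tested comparison under any alternative run. Called gene counts moved by over 1.5 times as follows. With a fold change over 2 they were 107 in TN vs Ctrl, 6 in PRTN vs BUTN, 1 in TNPR vs TNBU, 23 in TNPR vs PRTN and 30 in TNBU vs BUTN. With only the groups compared they were 190 in PRTN vs BUTN, 0 in TNPR vs TNBU, 7 in TNPR vs PRTN, 4 in TNBU vs BUTN and 1 in the interaction of SCFA and timing. Without a filter beyond 1 count they were 75 in PRTN vs BUTN, 13 in TNPR vs TNBU and 1 in the interaction. DESeq2 called 27, 9 and 4 in these, and edgeR 25 in TNPR vs PRTN and 1 in the interaction. With the replicate number as a block, PRTN vs BUTN had 27 calls, but the samples share only a number. The cause of these shifts was not tested.

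With each library left out in turn, calls ranged from 177 to 376 in TN vs Ctrl (177 and 210 without Ctrl replicate 1 and 2, 187 without TN replicate 1), 3 to 76 in PRTN vs BUTN (3 without PRTN replicate 1 or BUTN replicate 2, 76 without TNBU replicate 1), 2 to 4 in TNPR vs TNBU (4 without TNBU replicate 1), 8 to 76 in TNPR vs PRTN (8 without PRTN replicate 1, 76 without TNPR replicate 1), 18 to 317 in TNBU vs BUTN (18 without either BUTN library, 317 without TNBU replicate 1) and 0 to 10 in the interaction (10 without PRTN replicate 2).

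Small log2 differences of members, none of them called, changed sign. REST in TN vs Ctrl was -0.0144 with library size only, and NGFR in TNPR vs PRTN -3e-04 with RLE size factors. ELAVL2 in TNBU vs BUTN was -9e-04 with DESeq2, -0.0016 with RLE and -0.0027 with genes at 0 in any library removed. The NTRK3 interaction was 0.4006 with edgeR, 0.4305 with DESeq2 and 0.1304 with the block. The REST interaction was -0.0084, -0.0182 and -3e-04 in these, -0.004 with RLE, -0.0225 with library size only and -0.0058 with genes at 0 removed. Over the libraries left out, the interaction ran from -0.1027 to 0.2223 for BDNF, -0.2996 to 0.0303 for NGFR, -1.4706 to 0.976 for NTRK3 and -0.2103 to 0.2016 for REST. PRTN vs BUTN ran from -0.0315 to 0.0659 for ELAVL2 and -1.1949 to 0.2653 for NTRK3. TNBU vs BUTN ran from -0.2105 to 0.0858 for BDNF, -0.057 to 0.0402 for ELAVL2 and -0.3724 to 0.0393 for REST. TNPR vs PRTN ran from -0.1615 to 0.1632 for BDNF, -0.1663 to 0.1634 for NGFR and -0.3879 to 2.0583 for NTRK3. TNPR vs TNBU ran from -0.2085 to 0.2495 for NTRK2, -1.9552 to 0.4905 for NTRK3 and -0.3888 to 0.0227 for REST. Of 484 list counts over the alternatives, 442 stayed within 1.5 times and 42 moved. With genes at 0 in any library removed, genes up in all 4 SCFA comparisons went from 6 to 1 among RNA-binding proteins, 14 to 9 among neuron markers, 11 to 6 among renal, 8 to 5 among fibroblast and endothelial, and 5 to 2 among neural crest markers (3 with DESeq2 or only the groups compared). The other moves were in counts of 1 to 3 genes. Depth limits NTRK2 and NTRK3 most, at no more than 9 counts in a library.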
